A study of Mus musculus with 16 samples.

Results

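The AMPA and NMDA receptor subunit genes *Gria1*, *Gria2*, *Gria3*, *Gria4*, *Grin1*, *Grin2a*, *Grin2b*, *Grin2c*, *Grin2d* and *Grin3a* were followed across the cell classes of the dentate gyrus (DG). They were taken by gene symbol from the RNA features of 8 single-nucleus libraries, where each of the 10 matched 1 of 32285 genes. The libraries came from 4 WT mice (labelled VV) and 4 V321L mice (labelled LL), 2 females and 2 males of each, called F1, F2, M1 and M2. V321L mice carry a valine to leucine change in the transmembrane domain of the growth factor Nrg1, which was studied for its effect on signaling from the membrane to the nucleus. The change is inherited, so every cell class of a V321L mouse carries it, and no treatment is named for either group. The DG was dissected by hand and frozen before nuclei were isolated, and 1 library per mouse gave both RNA and accessible chromatin for each nucleus. The age of each sequenced mouse is not given in the sources used here.

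AMPA and NMDA receptors are the ion channels that carry most fast excitatory transmission between neurons, and each is built from 4 subunits. The *Gria* genes encode the AMPA receptor subunits GluA1 to GluA4, and GluA2, after RNA editing, keeps the channel impermeable to calcium. *Grin1* encodes the obligatory NMDA receptor subunit GluN1, *Grin2a* to *Grin2d* encode the glutamate-binding GluN2 subunits that set channel kinetics, and *Grin3a* encodes the glycine-binding GluN3A. In the hippocampus GluN2B is known as the early and GluN2A as the later GluN2 subunit, GluN2D is known from interneurons, and calcium-permeable AMPA receptors low in GluA2 are known from parvalbumin and other interneurons. Granule cells (GCs) are the principal neurons of the DG and receive glutamatergic input from the entorhinal cortex.

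Barcodes that met the study's limits on unique molecular identifiers (UMIs), genes and mitochondrial share, and that had at least 500 ATAC counts in peaks, numbered 17015. Each was assigned to 1 of 13 classes by its UMIs of 100 marker genes, none of which is a receptor subunit gene. A class was assigned to 15040 nuclei (88.4%), 997 (5.86%) carried markers of 2 classes and were left out, and 978 (5.75%) stayed without a class. The GC-like class held 10679 nuclei, 1318, 2438, 1332 and 1502 in the WT mice and 1159, 1216, 839 and 875 in the V321L mice, always in the order F1, F2, M1 and M2. Its leading genes included the GC markers *Glis3*, *Trpc6*, *Dgkh*, *Rfx3*, *Stxbp6* and *C1ql2*. A class of 32 nuclei gated by mossy cell markers had as many CA3 markers as markers of its own among its leading genes and was left unnamed. A class gated by CA1 markers is not described here. Of 14898 distinct barcodes of nuclei, 141 occurred in more than 1 library.

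V321L nuclei were deeper and differed in RNA makeup. RNA libraries held 4326426 to 14624265 UMIs in WT and 15505354 to 23582057 UMIs in V321L mice, and the median nucleus of a mouse held 1123 to 1951.5 UMIs in WT and 2709.5 to 4166 UMIs in V321L mice. In GC-like nuclei, mitochondrial UMIs made up 0.168 to 0.264% of all UMIs in WT and 0.415 to 1.17% in V321L mice, and ribosomal protein genes 0.0989 to 0.163% and 0.866 to 1.77%. The nuclear RNA *Malat1* took 0.768 to 1.01% and 3.56 to 4.95%. UMIs of genes that span at least 100 kb made up 65.2 to 71.5% in WT and 46.1 to 50.9% in V321L mice, and UMIs of genes under 10 kb 2.41 to 4.00% and 12.6 to 16.1%. No range overlapped between the genotypes. These shares accompany every comparison of the genotypes given here, and their part in the results was not tested.

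Most subunit genes are long. *Gria1* lies at chr11:57011571-57330244, *Gria2* at chr3:80681450-80804227, *Gria3* at chrX:41400819-41678601 and *Gria4* at chr9:4417893-4796234 of GRCm38 (mm10) in the RefSeq annotation, with spans of 319, 123, 278 and 378 kb. *Grin2a* at chr16:9567901-9996083 and *Grin2b* at chr6:135713221-136173615 span 428 and 460.4 kb, and *Grin3a* at chr4:49661611-49846023 spans 184 kb. *Grin1* at chr2:25291177-25319187, *Grin2c* at chr11:115249169-115267297 and *Grin2d* at chr7:45831883-45871194 are compact, with 28.0, 18.1 and 39.3 kb. Nuclear RNA is rich in unspliced transcripts, so levels were compared between genes only per 100 kb of gene span. A level is given as CPM, a gene's share of the summed UMIs of a class in a mouse, scaled to the same total in all.

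RefSeq promoter windows, from 250 bases before to 50 bases after an annotated start, were held for 5 of the 10 genes. For *Grin1* that start is the end of the span given above, while for *Grin2c* it lies inside the span. The windows of *Grin1* and *Grin2c* are shown because these were the subunit genes with the largest positive difference between the genotypes, *Grin1* in neurons and *Grin2c* in astrocyte-like nuclei. Both are read from the minus strand of GRCm38.p6, 5′ to 3′, and capitals mark the GC box GGGCGG, which with its reverse complement CCGCCC occurred in 35.7% of 32851 promoter windows.
Grin1, chr2:25319138-25319437: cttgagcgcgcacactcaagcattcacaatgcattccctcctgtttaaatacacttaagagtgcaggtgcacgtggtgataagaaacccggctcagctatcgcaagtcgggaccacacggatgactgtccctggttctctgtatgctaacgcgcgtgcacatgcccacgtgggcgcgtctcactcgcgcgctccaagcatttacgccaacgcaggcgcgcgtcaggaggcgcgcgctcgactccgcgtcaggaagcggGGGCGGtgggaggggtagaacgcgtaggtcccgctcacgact
Grin2c, chr11:115267194-115267493: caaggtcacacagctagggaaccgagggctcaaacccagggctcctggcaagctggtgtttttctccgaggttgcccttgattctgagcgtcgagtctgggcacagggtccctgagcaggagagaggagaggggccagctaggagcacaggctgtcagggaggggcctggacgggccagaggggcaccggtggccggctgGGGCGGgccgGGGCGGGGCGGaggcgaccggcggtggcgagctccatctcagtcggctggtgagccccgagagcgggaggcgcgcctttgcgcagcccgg
The *Grin1* window held 1 GC box, 33 CpG dinucleotides and 2 copies of TGACG or its reverse complement CGTCA, letters found in 20.8% of windows. Of all promoter windows, 91.4% held fewer CpG, and the median was 7. The *Grin2c* window held 3 GC boxes, 2 of which share bases, and 22 CpG. A match of letters is a description of the window and not evidence of a bound factor.

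GC-like nuclei of WT mice expressed a *Gria2*-led AMPA receptor set. *Gria2* was at 2578, 2269.7, 2334 and 2603 CPM in the 4 WT mice, *Gria1* at 2125, 2157, 2146 and 1984 CPM, *Gria3* at 719, 698, 723 and 684 CPM and *Gria4* at 149.7, 178, 168 and 171 CPM. Per length, *Gria2* stood at 1992 ± 138 CPM per 100 kb (SD, n = 4), *Gria1* at 660.0 ± 25.2, *Gria3* at 254 ± 6.63 and *Gria4* at 44.1 ± 3.20. The ranges of these 4 levels did not overlap. *Gria2* thus made up 67.5% ± 2.08 of the summed AMPA receptor level per length, *Gria1* 22.4% ± 1.57, *Gria3* 8.62% ± 0.423 and *Gria4* 1.499% ± 0.156.

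Among the NMDA receptor genes of WT GC-like nuclei, *Grin1*, *Grin2a* and *Grin2b* led. The obligatory subunit gene *Grin1* was at 178, 135, 259 and 160.5 CPM, *Grin2a* at 2497, 2793, 2396 and 2322 CPM and *Grin2b* at 1568, 1661, 1594 and 1370.3 CPM. Per length these were 655 ± 192, 584 ± 48.3 and 336 ± 27.1 CPM per 100 kb (SD, n = 4). The ranges of *Grin1* and *Grin2a* overlapped each other and that of *Gria1*, while *Grin2b* lay below all 3. *Grin3a* at 16.1 ± 1.39 and *Grin2d* at 9.79 ± 2.65 CPM per 100 kb were low, and *Grin2c* had 4 UMIs in all WT GC-like nuclei. Per length, *Grin2a* lay above *Grin2b* in every WT mouse.

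**Figure D1:**
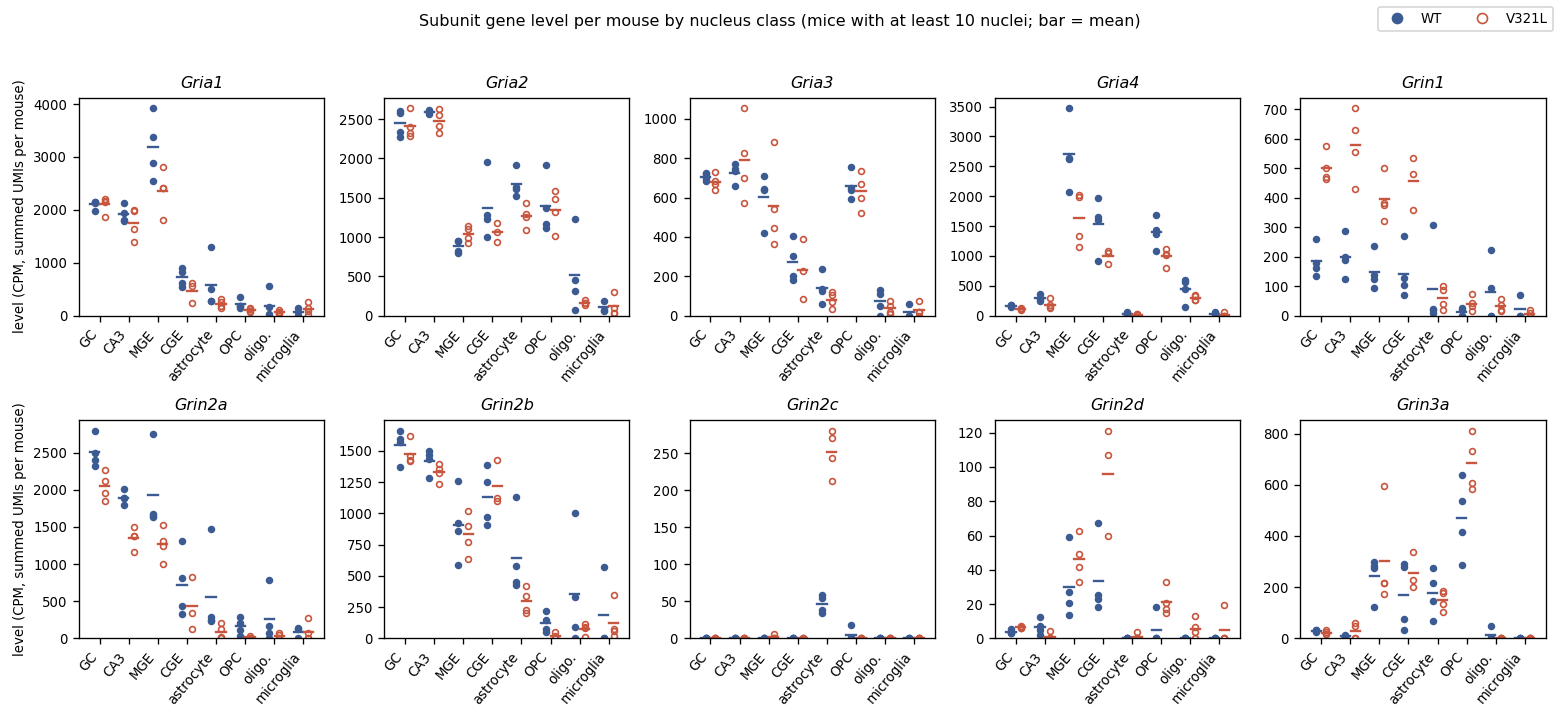
Level of each AMPA and NMDA receptor subunit gene (vertical axis, CPM) in each cell class (horizontal axis), with 1 point per mouse with at least 10 nuclei of the class (WT filled blue, V321L open red) and a bar at the mean. *Gria4* is highest in the MGE-type, CGE-type and OPC-like classes, *Grin2c* is concentrated in astrocyte-like nuclei, and *Grin3a* peaks in OPC-like nuclei at 470.1 CPM on average in WT mice.

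CA3 pyramidal neuron-like nuclei differed from GC-like nuclei in *Gria4*, *Grin2a* and *Grin3a*. They numbered 130, 311, 149 and 138 in the WT mice. Against GC-like nuclei of the same mice, *Gria4* was higher (0.86 ± 0.10, adjusted p = 2.07e-10, log2 fold change ± SE), *Grin2a* was lower (-0.37 ± 0.07, adjusted p = 1.65e-05) and *Grin3a* was lower (-1.84 ± 0.29, adjusted p = 7.18e-07). This made 3 calls among 8 subunit genes tested, beside 36.5% of all genes tested. *Grin3a* was at 7.47, 8.80, 12.4 and 5.33 CPM in CA3-like and 26.9, 31.5, 32.3 and 28.3 CPM in GC-like nuclei, without overlap. *Gria2* was at 2564, 2607, 2622 and 2589 CPM, and its range overlapped that of GC-like nuclei. *Gria1*, *Gria2*, *Gria3*, *Grin1* and *Grin2b* did not pass, with log2 fold changes from -0.10 to 0.12, and *Grin2c* and *Grin2d* were not tested. In the V321L mice, where 2 of 4 held 10 and 11 CA3-like nuclei, *Grin3a* did not pass the test (-1.02, adjusted p = 0.144). These p-values come from edgeR's quasi-likelihood fit with the mouse as a block. They set the difference between the 2 classes within a mouse against its spread over 4 mice. The fit estimates that spread partly from other genes, so small p-values do not rest on the 4 mice alone.

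GABAergic classes held a different AMPA receptor mix. MGE-type GABAergic neuron-like nuclei, led by *Sst*, *Nxph1* and *Gad2*, numbered 17, 69, 43 and 41 in the WT mice, and CGE-type nuclei, led by *Adarb2*, *Vip* and *Cnr1*, numbered 12, 39, 25 and 18. As some mice held fewer than 20, these classes were tested after the numbers were seen, with a minimum of 10 nuclei per mouse. The GluA4 gene *Gria4* was at 2638, 3476, 2071 and 2628 CPM in MGE-type nuclei of the WT mice, against 149.7, 178, 168 and 171 CPM in GC-like nuclei (3.77 ± 0.17, adjusted p = 1.83e-101). *Gria2* was at 825, 949, 947 and 803 CPM there and lower than in GC-like nuclei in every mouse (-1.71 ± 0.17, adjusted p = 4.73e-22). Per length, the MGE-type AMPA receptor level in WT mice consisted of *Gria1* for 37.5% ± 2.59, *Gria2* for 27.3% ± 3.25 and *Gria4* for 26.9% ± 3.59 (SD, n = 4), so that no subunit made up most of it. *Gria1* was at 2543, 3926, 2885 and 3383 CPM, which did not pass the test against GC-like nuclei (0.35 ± 0.16, adjusted p = 0.0927) but did with library sizes in place of TMM (0.59) or without WT F1 (0.49). In this fit, as in those of the CGE-type and glial classes against GC-like nuclei, edgeR gave all genes of a level 1 shared spread. The small p-values therefore rest on that shared spread and 4 mice. Values of each mouse are given beside some of them.

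CGE-type nuclei shared the high *Gria4*, at 1599, 1965, 907 and 1646 CPM in the WT mice (2.76 ± 0.22, adjusted p = 6.48e-34). Their *Gria1*, at 533, 829.6, 907 and 615 CPM, was lower than in GC-like nuclei (-1.99 ± 0.22, adjusted p = 1.76e-17). *Gria2* made up 59.5% ± 8.72 of their AMPA receptor level per length. In both GABAergic classes *Gria3* was lower than in GC-like nuclei, by 1.91 on the log2 scale in CGE-type nuclei and by 0.46 in MGE-type nuclei. The latter call was lost without WT F1 (-0.29), WT F2 (-0.52) or WT M2 (-0.55).

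The NMDA receptor genes of the GABAergic classes differed in the minor subunits. *Grin3a* was at 122, 298, 281 and 274 CPM in MGE-type nuclei of the WT mice (2.82 ± 0.25, adjusted p = 6.27e-28) and at 278, 76.6, 33.6 and 289 CPM in CGE-type nuclei (2.07 ± 0.41, adjusted p = 6.25e-06). WT F1 stood below the other MGE-type values, and the 4 CGE-type values spread from 1 to 16 UMIs. The interneuron subunit gene *Grin2d* had 2, 3, 4 and 2 UMIs in MGE-type and 1, 2, 2 and 1 UMIs in CGE-type nuclei of the WT mice. It was higher than in GC-like nuclei in both classes (2.55 ± 0.73, adjusted p = 0.00300 and 2.56 ± 0.95, adjusted p = 0.0458). The MGE-type call was lost without WT M1 (2.22, adjusted p = 0.0540), and the CGE-type call without any 1 of the 4 mice, with values of 2.37 to 2.84. *Grin2a* was lower in MGE-type (-0.65 ± 0.16, adjusted p = 0.000487) and CGE-type nuclei (-2.35 ± 0.23, adjusted p = 2.47e-23), as was *Grin2b* (-1.05 ± 0.17, adjusted p = 5.79e-09 and -0.89 ± 0.21, adjusted p = 0.000331). In WT F1, however, *Grin2a* was at 2746 CPM in MGE-type nuclei, above its level in GC-like nuclei of that mouse. *Grin1* did not pass in either class (-0.51 ± 0.23, adjusted p = 0.0861 and -0.86 ± 0.33, adjusted p = 0.0574), and *Grin2c* was not tested. In all, 7 of 9 subunit genes tested passed in MGE-type nuclei, where 24.2% of all genes did, and 8 of 9 in CGE-type nuclei, where 16.1% did.

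**Figure D2:**
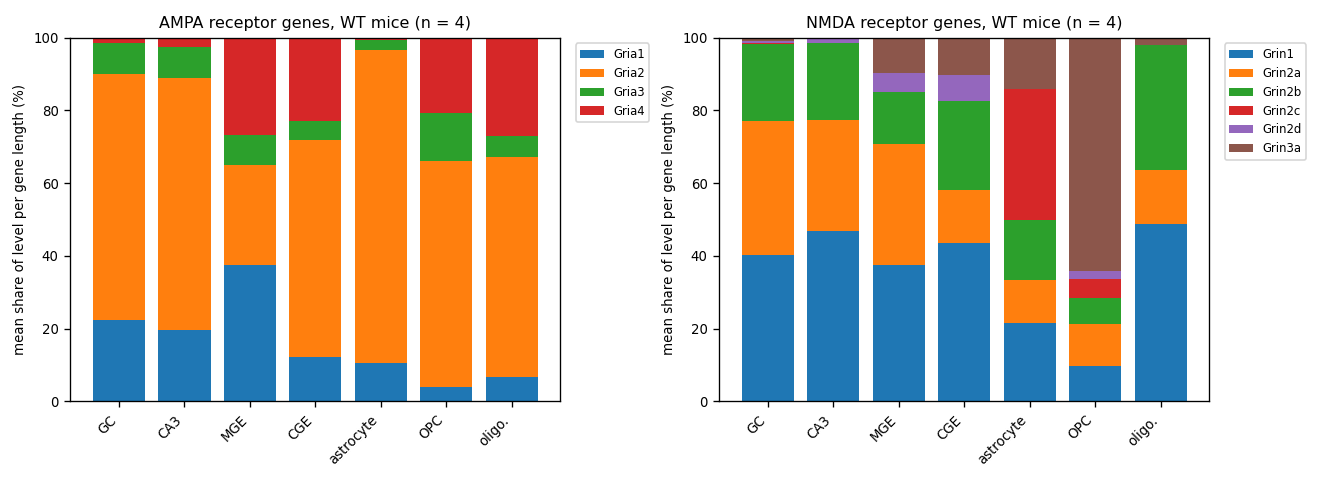
Share of each subunit gene in the summed AMPA receptor (left) and NMDA receptor (right) level per 100 kb of gene span, in percent, as the mean over the 4 WT mice, stacked for each cell class. *Gria2* makes up 67.5% in GC-like but 27.3% in MGE-type nuclei, and *Grin3a* takes the largest share of the NMDA receptor level in OPC-like nuclei.

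In glial classes most subunit genes were lower than in GC-like nuclei, while *Grin2c*, *Grin3a* or *Gria4* stood out. In astrocyte or radial glia-like nuclei (astrocyte-like), *Grin2c* was at 38.5, 58.6, 34.2 and 54.0 CPM in the WT mice, from 4, 10, 1 and 6 UMIs, against at most 0.587 CPM in GC-like nuclei (6.71 ± 0.86, adjusted p = 7.19e-14). *Gria2* made up 86.0% ± 7.45 of the astrocyte-like AMPA receptor level per length. It was at 1616, 1524, 1915 and 1639 CPM and lower than in GC-like nuclei (-0.95 ± 0.28, adjusted p = 0.00319), a call that was lost without WT F1 (-0.85), WT F2 (-0.92) or WT M2 (-0.87) and with library sizes (-0.55). *Gria1*, *Gria3*, *Gria4*, *Grin1*, *Grin2a* and *Grin2b* were also lower, with log2 fold changes from -3.08 to -1.80, and *Grin3a* was higher (2.36 ± 0.28, adjusted p = 1.98e-15). *Grin3a* was at 144, 276, 68.4 and 216 CPM in the WT mice, from 15, 47, 2 and 24 UMIs. The *Grin1* call rested on 1, 4, 9 and 2 UMIs in astrocyte-like nuclei of the WT mice. In WT M1 *Grin1* was at 308 CPM there, above the 259 CPM of GC-like nuclei. All 9 genes tested passed here, where 33.5% of all genes did.

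OPC-like nuclei, from oligodendrocyte precursors, held *Grin3a* at 417, 538, 288 and 638 CPM in the WT mice, against 26.9 to 32.3 CPM in GC-like nuclei (3.39 ± 0.36, adjusted p = 6.81e-20). *Grin3a* made up 64.2% ± 10.8 of their NMDA receptor level per length. *Gria4* was at 1693, 1372, 1079 and 1441 CPM (2.41 ± 0.22, adjusted p = 5.69e-25) and *Gria3* at 755, 593, 647 and 638 CPM. *Gria3* passed as lower than in GC-like nuclei (-0.77 ± 0.23, adjusted p = 0.00522), but not without WT F2 (-0.70) or WT M2 (-0.74), and not with library sizes (-0.10). *Gria1*, *Grin1*, *Grin2a* and *Grin2b* were lower than in GC-like nuclei, with log2 fold changes from -4.95 to -3.84, and *Gria2* by 1.51. *Grin1* had 1, 0, 0 and 1 UMIs in OPC-like nuclei of the WT mice. In all, 8 of 8 genes tested passed, beside 21.5% of all genes tested.

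In oligodendrocyte-like nuclei *Gria4* was at 268, 331, 340.4 and 262 CPM in V321L mice and at 151, 571, 446 and 589 CPM in WT mice. Against GC-like nuclei it passed the test in the V321L mice (1.31, adjusted p = 3.52e-14) and not in the WT mice (0.51 ± 0.37, adjusted p = 0.329). *Gria1*, *Gria2*, *Gria3*, *Grin1*, *Grin2a* and *Grin2b* were lower than in GC-like nuclei in WT mice, with log2 fold changes from -5.07 to -2.54, beside 24.4% of all genes that passed. *Grin1* had 0, 4, 2 and 0 UMIs in oligodendrocyte-like nuclei of the WT mice.

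**Figure D3:**
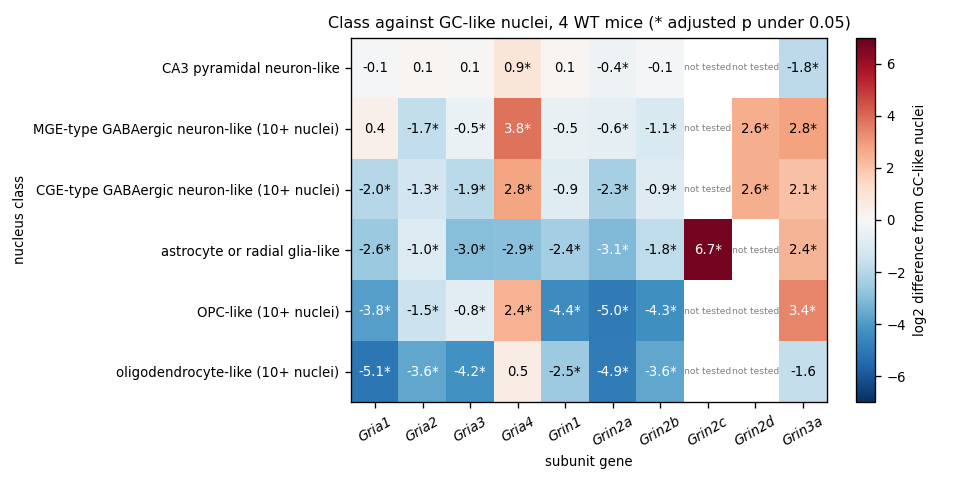
Log2 fold change of each subunit gene (columns) in each cell class (rows) against GC-like nuclei of the same 4 WT mice, as color (red higher, blue lower) and printed value, with an asterisk for an adjusted p under 0.05. *Gria4* and *Grin3a* are higher in MGE-type, CGE-type and OPC-like nuclei, and *Grin2a* is lower in every class.

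Free RNA set a floor under these glial values. From genes of other classes, it was estimated at 4.25% of the UMIs of WT and 4.56% of the UMIs of V321L GC-like nuclei, at 7.54 and 10.2% in astrocyte-like, 7.97 and 10.2% in OPC-like, and 17.6 and 8.07% in oligodendrocyte-like nuclei. In WT oligodendrocyte-like nuclei, *Gria1* was observed at 111 CPM where free RNA alone gave 152 CPM, *Grin2a* at 146 where it gave 136 CPM, and *Gria4* at 472 where it gave 20.7 CPM. The estimate for WT oligodendrocyte-like nuclei rests on 6 UMIs, against 50 in V321L mice, so the values expected there are rough. *Grin3a* in OPC-like nuclei (521 against 2.78 CPM) and *Grin2c* in astrocyte-like nuclei (50.6 against 0.542 CPM) stood well above the level that free RNA gave. These are levels pooled over the WT mice.

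Shares of nuclei with a UMI were compared after every nucleus was thinned to 500 UMIs. *Gria4* was detected in 70% (62.5 to 76.8%) of MGE-type and 7.47% (6.84 to 8.13%) of GC-like nuclei of WT mice (exact 95% interval, counting error over nuclei only). *Grin3a* was detected in 21.6% (14.7 to 29.8%) of OPC-like and 1.44% (1.17 to 1.76%) of GC-like nuclei. In microglia-like nuclei *Gria1* was detected in 5.45% (1.14 to 15.1%) of WT and 3.72% (1.71 to 6.94%) of V321L nuclei. *Grin3a* was detected there in 0 of 55 and 0 of 242 nuclei. By the limit of 3 counts, these allow shares of nuclei with a UMI at this depth of up to 5.45 and 1.24%. The median depth before thinning was 911 UMIs in microglia-like and 2442 UMIs in GC-like nuclei.

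In GC-like nuclei, *Grin1* was higher and 7 other subunit genes were lower in V321L than in WT mice relative to the other genes. *Grin1* was at 178, 135, 259 and 160.5 CPM in the WT mice and 468, 500.4, 576 and 462 CPM in the V321L mice, and all V321L values lay above all WT values (1.04 ± 0.14, adjusted p = 1.61e-05). *Gria4* was at 149.7, 178, 168 and 171 CPM in the WT mice and 122, 94.95, 115 and 104 CPM in the V321L mice, again without overlap but in the opposite direction (-1.07 ± 0.12, adjusted p = 4.90e-06). *Grin2a* was at 2497, 2793, 2396 and 2322 CPM in the WT mice and 1854, 2267, 2119.7 and 1957 CPM in the V321L mice (-0.75 ± 0.14, adjusted p = 0.000266), with the highest V321L mouse just below the lowest WT mouse. In bulk sums of this kind, fewer nuclei with a transcript and less RNA per nucleus cannot be told apart.

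The other 6 genes tested had smaller or overlapping differences. *Gria1* was at 2125, 2157, 2146 and 1984 CPM in the WT mice and 1866, 2213, 2176 and 2155 CPM in the V321L mice (-0.45 ± 0.12, adjusted p = 0.00391). *Gria2* was at 2578, 2269.7, 2334 and 2603 CPM in the WT mice and 2287, 2406, 2644 and 2323 CPM in the V321L mice (-0.47 ± 0.12, adjusted p = 0.00312). For both the CPM values of the genotypes overlapped, and the call rests on the TMM scaling, which sets levels relative to most other genes. *Gria3* (-0.50 ± 0.10, adjusted p = 0.000689), *Grin2b* (-0.52 ± 0.12, adjusted p = 0.00203) and *Grin3a* (-0.86 ± 0.22, adjusted p = 0.00315) were likewise lower with overlapping CPM values. *Grin2d* was at 3.29, 2.90, 5.28 and 3.93 CPM in the WT mice and 7.52, 6.15, 6.19 and 6.55 CPM in the V321L mice and did not pass (0.38 ± 0.24, adjusted p = 0.172), and *Grin2c*, with 4 UMIs in WT and 10 in V321L mice, was not tested. Of 9 subunit genes tested 8 passed, beside 70.6% of the 12296 genes tested, of which 38.7% were higher and 31.9% lower in V321L mice.

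For several genes the call rested on the scaling. Over all genes, the log2 fold changes had a median of 0.12 with TMM and, with library sizes, of 0.57, with 54.4% of genes higher and 17.2% lower. With library sizes, *Gria1* stood at -0.00, *Gria2* at -0.02, *Gria3* at -0.06, *Grin2b* at -0.07 and *Grin3a* at -0.40, and none of these 5 passed. *Grin1* (1.46), *Gria4* (-0.62) and *Grin2a* (-0.29) kept their direction and passed, and *Grin2d* (0.84) now passed. Relative to the median of all genes the 2 scalings gave almost the same values, for example 0.92 and 0.89 for *Grin1*, -1.19 and -1.19 for *Gria4*, and -0.58 and -0.59 for *Gria2*. The scalings differ by a factor per library, which moves all genes of a library alike. Such near equality therefore follows from the method and is no evidence for the calls. Leaving out any 1 mouse kept all 8 calls.

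Markers of other classes in GC-like nuclei also differed between the genotypes. In GC-like nuclei, the summed level of the 10 astrocyte or radial glia markers was 1473 to 1587 CPM in WT and 963 to 1076 CPM in V321L mice, that of the 9 CGE-type markers 2009 to 2611 and 1447 to 1732 CPM, and that of the 7 CA3 markers 463 to 598 and 367 to 406 CPM. The 9 MGE-type markers summed to 81.1 to 95.04 and 114 to 152 CPM and the 6 neuroblast or immature GC markers to 56.6 to 76.2 and 82.5 to 100.3 CPM, of which *Eomes* and *Draxin* were at 0 in every V321L mouse. The 9 oligodendrocyte markers were at 396 to 460.3 and 397 to 482 CPM. Single genes carried most of some sums: over all GC-like nuclei *Adarb2* of the CGE-type list was at 1801 CPM and *Slc4a4* of the astrocyte list at 948 CPM. The number of CGE-type markers with a UMI was 5 to 7 of 9 in WT and 8 to 9 of 9 in V321L mice. Of the lists given here, only the oligodendrocyte sums overlapped between the genotypes. The sums of the microglia, vascular cell and Cajal-Retzius cell lists, not given here, overlapped as well. The part of these sums in the subunit differences was not tested.

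Gene span moved with the difference between the genotypes across all genes. Among the 637 genes tested that span over 250 kb the median log2 fold change was -1.06 and 95.3% were lower in V321L mice, and among the 2475 genes under 10 kb the median was 1.71 and 79.5% were higher. The 5 subunit genes over 250 kb, *Gria1*, *Gria3*, *Gria4*, *Grin2a* and *Grin2b*, lay between -1.07 and -0.45. Of these only *Gria4* was as low as the median of its span class. *Gria2* (-0.47) and *Grin3a* (-0.86) lay on either side of the median of -0.70 for genes of 100 to 250 kb. *Grin1* (1.04) lay above the median of 0.54 for genes of 10 to 30 kb, where 52.5% of 3698 genes were higher. The part of gene span in these differences was not tested.

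**Figure D4:**
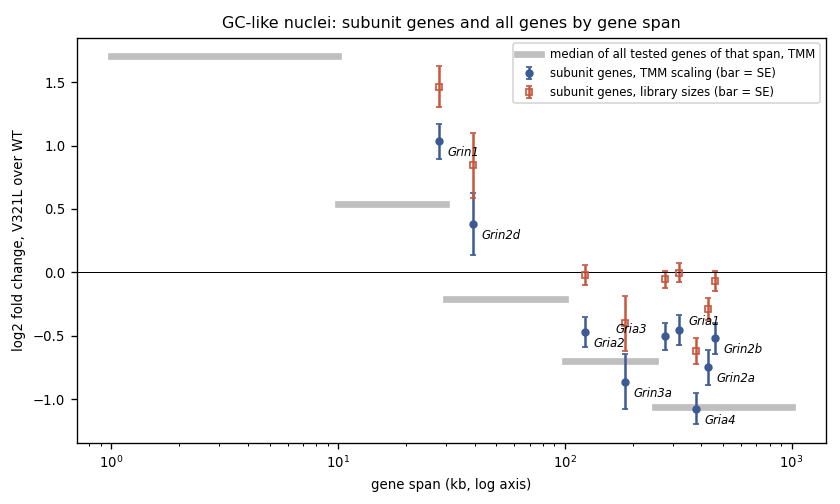
Log2 fold change of V321L against WT in GC-like nuclei (vertical axis) against gene span in kb (horizontal axis, log scale) for the 9 subunit genes tested, with TMM (filled circles) and with library sizes (open squares), bars giving the SE. Horizontal grey bars are the median with TMM of all genes tested in each range of span, the last for all spans over 250 kb, which falls from 1.71 to -1.06, and *Grin1* with TMM stands above the bar of its range.

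Ratios within a nucleus class do not depend on the scaling. The ratio of *Grin1* UMIs to the UMIs of all *Grin2* genes was 0.0439, 0.0303, 0.0649 and 0.0434 in WT and 0.143, 0.134, 0.154 and 0.136 in V321L GC-like nuclei. All V321L ratios lay above all WT ratios, 3.22-fold on average (1.69 on the log2 scale, exact p = 0.0286, adjusted p = 0.143 over 5 ratios). The smallest p that 4 against 4 mice allow is 0.0286, so after adjustment over 5 ratios no ratio could pass on its own. *Grin2a* to *Grin2b* was 1.59, 1.68, 1.5 and 1.69 in WT and 1.31, 1.56, 1.31 and 1.37 in V321L mice (-0.22 on the log2 scale, exact p = 0.0571, adjusted p = 0.143), with overlapping ranges. *Gria2* to the other *Gria* genes differed by 0.02 on the log2 scale, exact p = 0.743, adjusted p = 0.743, *Gria1* to *Gria3* by 0.05 on the log2 scale, exact p = 0.429, adjusted p = 0.714, and all *Grin* to all *Gria* by -0.04 on the log2 scale, exact p = 0.571, adjusted p = 0.714. The ranges of the 2 AMPA receptor ratios overlapped between the genotypes. *Grin1* spans 28.0 kb, and *Grin2a* and *Grin2b*, which gave nearly all *Grin2* UMIs, 428 and 460.4 kb.

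Per length, *Grin1* made up 40.3% ± 7.32 of the NMDA receptor level in WT and 68.2% ± 1.30 in V321L GC-like nuclei (SD, n = 4 each), *Grin2a* 36.8% ± 5.29 and 18.3% ± 1.32, and *Grin2b* 21.1% ± 2.13 and 12.3% ± 0.396. Of the *Grin* UMIs, *Grin1* made up 4.18, 2.93, 6.05 and 4.13% in the WT and 12.4, 11.8, 13.2 and 11.9% in the V321L mice. The same gene spans were used for both genotypes, although genes of at least 100 kb took a smaller share of UMIs in V321L mice. The part of that difference in the mix was not tested. The AMPA receptor mix differed by less than 1 percentage point for every subunit, with *Gria2* at 67.8% ± 0.894 and *Gria1* at 22.8% ± 1.29 in V321L mice. At 500 UMIs per nucleus 8.66% of GC-like nuclei in WT and 21.1% in V321L mice had a *Grin1* UMI. The shares were for *Gria4* 7.47% and 5.09%, *Grin2a* 68.9% and 61.3%, and *Gria2* 67.8% and 69.0%. The detection shares of *Grin1*, *Gria4* and *Grin2a* had the direction of their levels at equal depth.

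In the other classes, *Grin2c* in astrocyte-like nuclei had the largest positive difference between the genotypes among the calls. It met the filter on low counts only through its levels in V321L mice. At its WT levels in every mouse it would not have been tested. It was at 38.5, 58.6, 34.2 and 54.0 CPM in the WT mice and 213, 244, 271 and 281 CPM in the V321L mice, from 4, 10, 1 and 6 UMIs in WT and 59, 70, 28 and 42 UMIs in V321L mice, without overlap (2.46 ± 0.26, adjusted p = 1.58e-05). It was the only subunit gene of 7 tested that passed in astrocyte-like nuclei, beside 40.1% of the 2611 genes tested there. In these nuclei, genes under 10 kb took 4.02 to 5.47% of UMIs in WT and 16.9 to 20.8% in V321L mice. Genes of at least 100 kb took 57.6 to 62.6% and 36.5 to 40.6%. *Grin2c* spans 18.1 kb, and the part of these shares in its difference was not tested. *Grin2a* was at 231, 281, 1470.2 and 252 CPM in the WT mice and 130.0, 3.48, 19.4 and 214 CPM in the V321L mice in these nuclei and missed the threshold (-2.10 ± 0.81, adjusted p = 0.0536). WT M1, with 26 astrocyte-like nuclei, stood far above the other 3 WT mice in *Grin2a*. With every nucleus thinned to 500 UMIs, *Grin2c* had too few counts to be tested in this class. At that depth 2.66% of astrocyte-like nuclei in WT and 10.2% in V321L mice had a *Grin2c* UMI.

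Classes with at least 10 nuclei in every mouse gave 7 further calls. In CA3-like nuclei *Grin1* was at 187, 124, 287 and 197 CPM in the WT mice and 629, 704, 430.3 and 555 CPM in the V321L mice (1.32 ± 0.21, adjusted p = 4.41e-05), the same direction as in GC-like nuclei. *Gria4* (-1.08 ± 0.23, adjusted p = 0.000867) and *Grin2a* (-0.73 ± 0.14, adjusted p = 0.000291) were lower there. *Gria2* (-0.31 ± 0.13, adjusted p = 0.0499) and *Grin2b* (-0.36 ± 0.14, adjusted p = 0.0417) passed narrowly, stood at 0.01 and -0.03 with library sizes, and lost the call without any 1 of 6 and of 4 of the 8 mice, over which *Gria2* ranged from -0.42 to -0.25 and *Grin2b* from -0.46 to -0.28. These 5 calls among 7 subunit genes tested compare with 48.0% of 5303 genes tested.

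*Grin1* was also higher in MGE-type nuclei of V321L mice, at 94.7, 138, 237 and 124 CPM in the WT mice and 322, 381, 501 and 375 CPM in the V321L mice (1.60 ± 0.28, adjusted p = 0.000856), the only call among 8 subunit genes tested, beside 18.0% of 1801 genes. *Gria4* there was at 2638, 3476, 2071 and 2628 CPM in the WT mice and 2026, 1338, 1156 and 1986 CPM in the V321L mice. Its ranges did not overlap, but it did not pass (-0.58 ± 0.24, adjusted p = 0.115). The ratio of *Gria2* to the other *Gria* genes in MGE-type nuclei had geometric means of 0.137 in WT and 0.229 in V321L mice (0.74 on the log2 scale, exact p = 0.0286, adjusted p = 0.0714). In OPC-like nuclei *Grin3a* was at 417, 538, 288 and 638 CPM in the WT mice and 585, 731, 811 and 605 CPM in the V321L mice and passed as 1 of 4 tested (0.70 ± 0.23, adjusted p = 0.0302), beside 21.5% of 1090 genes. That call was lost without WT F1 (0.58), WT F2 (0.69), WT M1 (0.58), V321L F2 (0.65) or V321L M1 (0.63). Neither of the 2 subunit genes tested in oligodendrocyte-like nuclei, *Gria2* (-0.93 ± 0.49, adjusted p = 0.175) and *Gria4* (-0.35 ± 0.32, adjusted p = 0.461), passed, beside 30.6% of 1391 genes.

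The difference between the genotypes was itself compared between classes, as the effect in a class minus the effect in GC-like nuclei of the same mice. *Grin3a* in OPC-like nuclei passed (1.502 ± 0.30, adjusted p = 0.000171), since it was higher in V321L OPC-like and lower in V321L GC-like nuclei. With library sizes it stood at 0.87 (adjusted p = 0.364), and without WT M1 at 1.08 (adjusted p = 0.0852). *Grin2a* passed in OPC-like (-2.48 ± 0.68, adjusted p = 0.0170) and astrocyte-like nuclei (-1.66 ± 0.44, adjusted p = 0.0249). In OPC-like nuclei it rested on 8, 6, 4 and 2 UMIs in WT and 1, 1, 0 and 2 in V321L mice, and it passed without WT F2, WT M2 or V321L M2 but not without any other mouse, with values from -3.19 to -2.13. In astrocyte-like nuclei the call was lost without WT M1 (-0.96), V321L F2 (-0.93) or V321L M1 (-1.36). Free RNA alone gave 16.6 CPM of *Grin2a* in V321L OPC-like nuclei, above the 11.8 CPM observed, and 61.3 CPM in WT nuclei, where 124 CPM was observed. The background of such calls was 2.84% of genes in OPC-like, 0.926% in astrocyte-like, 0.393% in CA3-like and 0.355% in MGE-type nuclei. The fits of OPC-like, astrocyte-like and MGE-type nuclei again used a spread shared by all genes of a level, also where 1 mouse stood apart. The effect on *Grin1* in CA3-like nuclei did not pass as different from that in GC-like nuclei (0.22 ± 0.19, adjusted p = 0.920), nor did that in MGE-type nuclei (0.11 ± 0.30, adjusted p = 0.976).

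*Penk*, which encodes the opioid peptide precursor proenkephalin, marks a group of GCs that the study followed. GC-like nuclei with a *Penk* UMI numbered 25, 15, 14 and 15 in the WT and 80, 95, 49 and 46 in the V321L mice. *Gria1* was lower in *Penk*+ than in *Penk*- nuclei of the same mouse in 8 of 8 mice, at 1188, 1429.7, 1189 and 1449 CPM in *Penk*+ nuclei of the WT and 1303, 1455, 1274 and 1635 CPM of the V321L mice. In *Penk*- nuclei it was at 2149.5, 2162, 2158 and 1991 CPM and 1914, 2277, 2231 and 2187 CPM (-0.83 ± 0.11, adjusted p = 7.66e-11). *Grin2a* (-0.70 ± 0.11, adjusted p = 5.74e-08) and *Gria2* (-0.48 ± 0.11, adjusted p = 0.000624) were also lower in 8 of 8 mice, with means of 1623 ± 281 against 2302 ± 291 CPM and 2021 ± 147 against 2447 ± 157 CPM (SD, n = 8). This fit, like the one on depth-matched nuclei below, again used a spread shared by all genes of a level. Its small p-values rest on that shared spread and 8 mice.

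The median *Penk*+ nucleus held 2995, 1898, 1215 and 2520.0 UMIs in the WT and 3529, 4480.0, 4379 and 3684 in the V321L mice, and the median *Penk*- nucleus 1993, 1547, 1092 and 1915 and 3193, 4710.0, 4553 and 3272 UMIs. As *Penk*+ nuclei were deeper in 6 of 8 mice, each was also set against the 5 *Penk*- nuclei of its mouse closest in UMIs. *Gria1* (-0.73 ± 0.09, adjusted p = 1.56e-12), *Grin2a* (-0.61 ± 0.09, adjusted p = 3.84e-09), *Gria2* (-0.37 ± 0.09, adjusted p = 0.00134) and *Grin3a* (-1.36 ± 0.46, adjusted p = 0.0373) remained lower. *Grin3a* had 12 UMIs in all *Penk*+ nuclei, and its call against all *Penk*- nuclei (-1.47 ± 0.38, adjusted p = 0.00355) was lost without V321L F1 (-1.19). It lay below matched nuclei in 6 of 8 mice, and in WT M1 it was at 99.1 against 10.6 CPM. Within WT mice *Grin3a* did not pass against all *Penk*- nuclei (-0.73, adjusted p = 0.793) and was not tested against matched nuclei. *Gria4* was higher (0.51 ± 0.14, adjusted p = 0.00811) and *Grin2b* lower (-0.35 ± 0.11, adjusted p = 0.0399) against all *Penk*- nuclei, but neither passed against matched nuclei (0.36 and -0.23). *Gria4* also failed without V321L F1 (0.46), and *Grin2b* without any 1 of 7 of the 8 mice, within -0.42 to -0.29. *Gria3* (-0.03 ± 0.12, adjusted p = 0.946) and *Grin1* (-0.15 ± 0.13, adjusted p = 0.644) did not pass. In all, 6 of 9 subunit genes passed against all *Penk*- nuclei, where 6.05% of genes did, and 4 of 8 against matched nuclei, where 8.57% did. Of the *Penk*+ nuclei most came from V321L mice, and within WT mice alone 3 genes passed, *Gria1* among them (-1.07, adjusted p = 6.78e-07).

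**Figure D5:**
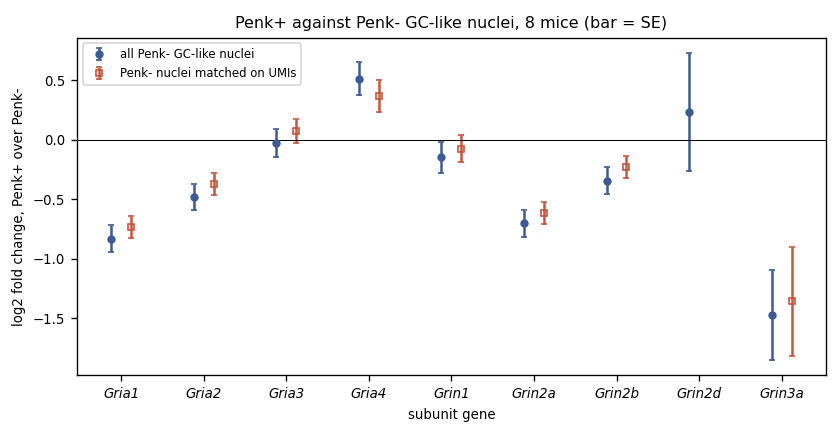
Log2 fold change of each subunit gene in *Penk*+ against *Penk*- GC-like nuclei of the same mice, with SE, against all *Penk*- nuclei (blue) and against *Penk*- nuclei matched on UMIs (red), n = 8 mice. *Gria1*, *Gria2*, *Grin2a* and *Grin3a* lie below 0 in both, and *Gria3* and *Grin1* lie near 0.

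Genes of proteins that assemble, anchor or modify these receptors were read from lists of 24, 8, 8 and 2 genes. Of the AMPA receptor auxiliary and assembly genes, 22 were tested in GC-like nuclei, of which 8 were higher and 7 lower in V321L mice, with a list median of 0.16 beside 0.12 for all genes. The largest differences were those of *Cnih2* (log2 fold change 3.02 ± 0.32, 16.3 against 159.6 CPM), a cornichon that exports AMPA receptors, *Olfm1* (log2 fold change 2.04 ± 0.18, 303 against 1658 CPM), a secreted olfactomedin, *Cpt1c* (log2 fold change 1.75 ± 0.18, 19.9 against 85.5 CPM), a brain carnitine palmitoyltransferase relative, and *Shisa9* (log2 fold change -1.37 ± 0.13, 943 against 501 CPM), which slows recovery from desensitization. *Cnih2* spans 5.65 kb and *Shisa9* 287 kb.

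Of the scaffold and trafficking genes 7 were tested, 2 higher and 3 lower. They included *Dlg2* (log2 fold change -1.37 ± 0.15, 8989 against 4776 CPM) and *Dlg1* (log2 fold change -0.87 ± 0.12, 339 against 253 CPM), which encode membrane-associated guanylate kinases of the postsynaptic density, *Grip1* (log2 fold change -1.10 ± 0.12, 219 against 141 CPM) and *Pick1* (log2 fold change 1.08 ± 0.21, 5.62 against 16.3 CPM), which encode PDZ proteins that bind AMPA receptor tails. Of the NMDA receptor related genes 7 were tested, 4 higher and 1 lower, among them *Grina* (log2 fold change 2.35 ± 0.25, 58.8 against 382 CPM), *Nsmf* (log2 fold change 1.84 ± 0.19, 29.6 against 135 CPM), *Srr* (log2 fold change 0.71 ± 0.10, 48.4 against 108 CPM), the serine racemase that makes the co-agonist D-serine, and *Ephb2* (log2 fold change 0.53 ± 0.19, 27.7 against 52.2 CPM). Of the RNA editing enzymes, *Adar* (log2 fold change 0.42 ± 0.11, 47.7 against 85.5 CPM) was higher and *Adarb1*, which edits GluA2, did not pass. *Cacng4*, *Shisa8*, *Grip2* and *Grin3b* were not tested for low counts. These lists were not set against other lists, and their shares of calls stand beside the 70.6% of all genes. *Dlg2*, *Dlg1*, *Grip1* and *Pick1* span 1973, 210, 634 and 20.3 kb. *Grina*, *Nsmf*, *Srr* and *Ephb2* span 3.19, 8.52, 23.5 and 189 kb. The part of gene span in the differences of these related genes was not tested.

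At the gene starts, no difference in accessibility between the genotypes passed the test. ATAC counts in peaks within 1 kb of the *Grin1* start of GC-like nuclei were 70.8, 61.5, 69.0 and 74.0 CPM of all ATAC counts in peaks in the WT and 101, 58.2, 60.0 and 109 in the V321L mice, with overlapping ranges (exact p = 0.429). Over the 10 genes every adjusted p from the exact permutation test was 1. The smallest exact p that 4 against 4 mice allow is 0.0286. After adjustment over 10 genes no gene could pass on its own, so the test cannot show that accessibility was equal. *Gria2* was at 36.6, 53.5, 45.6 and 56.0 in the WT and 41.8, 38.0, 41.1 and 68.6 in the V321L mice, and *Grin2b* at 54.4, 67.0, 51.7 and 57.2 and 38.9, 51.3, 47.9 and 82.5. The peaks of each library had been called on their own. They numbered 68588, 61021, 86955 and 70318 in the WT and 42140, 94282, 130470 and 36556 in the V321L mice. The values are therefore shares of different peak sets and not on a common scale. The highest *Grin1* values, 101 and 109, came from the libraries with the fewest peaks, V321L F1 and M2. A value of 0 means that no peak was called. This was the case for *Grin2a* in V321L F1 and M2, whose libraries had the fewest ATAC counts, and for *Gria3* and *Grin2d* in V321L M2. *Grin2c* had a peak at its start in 1 of 8 libraries, V321L M1, where GC-like nuclei held 1.53 CPM. The promoter window of *Grin1* was overlapped by a peak in 8 of 8 libraries and that of *Grin2c* in 0 of 8.

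The genes whose pattern over the 7 WT classes was most like that of each of 8 subunit genes were found by Pearson's r of log2(CPM + 1) over class means, among 12181 genes, with *Grin2c* and *Grin2d* left out as under 10 CPM in WT GC-like nuclei. They were *Vps11* (r = 0.986) and *Maneal* (r = 0.979) for *Gria1*, *Csnk1g1* (r = 0.994) and *Traip* (r = 0.990) for *Gria2*, *Pkib* (r = 0.988) and *Setdb1* (r = 0.981) for *Gria3* and *Cdc14b* (r = 0.983) and *A330076H08Rik* (r = 0.976) for *Gria4*. For the NMDA receptor genes they were *Fmnl1* (r = 0.996) and *Cep164* (r = 0.990) for *Grin1*, *8030462N17Rik* (r = 0.987) and *Zfp341* (r = 0.978) for *Grin2a*, *Tmem178* (r = 0.981) and *Caln1* (r = 0.980) for *Grin2b* and *Zfp982* (r = 0.978) and *Hpf1* (r = 0.968) for *Grin3a*. With 7 points that share libraries and free RNA these correlations only describe the class means, and several of the genes named had low counts.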

How the data were processed

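RNA and ATAC were measured in the same nuclei by 10x Multiome, 1 library per mouse. The authors deposited counts, that is whole-number UMIs per gene and ATAC counts per peak for every barcode, made with Cell Ranger and build mm10 as the submitters' processing notes name them, and called peaks library by library. The authors analysed them with Seurat and Signac. No version of these 3 tools is given in those notes. Positions and the barcode and feature names in the deposited files were used as given.

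Nuclei were kept by the study's limits on UMIs, genes and mitochondrial share, with an added minimum of 500 ATAC counts in peaks. Each was assigned to the class whose markers it matched best, with a log-likelihood margin of 2 and at least 2 UMIs of that class. Nuclei better described as a mixture of 2 classes by a margin of 6, set after the data were seen, were left out as likely doublets or mixtures, and no other doublet caller was run. UMIs were summed per mouse and class and tested with edgeR 4.0.16 in R 4.3.3 (quasi-likelihood F test, TMM scaling, filterByExpr, Benjamini-Hochberg adjustment over all genes tested, threshold 0.05). The SE is the log2 fold change divided by the square root of F. Comparisons within mice had the mouse as a block. Classes needed 20 nuclei in every mouse, and 10 in a version added after the numbers were seen. Ratios and ATAC counts were compared by two-sided exact permutation tests over mice in Python 3.11.15 with scipy 1.17.1. DESeq2 1.42.0, library sizes, thinned nuclei, other gates and left-out mice were alternatives. The fits were tested on simulated counts with known changes. Between the genotypes in GC-like nuclei, 37.0% of 1.5-fold and 97.0% of 2.0-fold changes were recovered. The simulation changed 100 genes by each fold and left the others alike, while in the data 70.6% of genes were called. These shares therefore do not measure what was recovered in the data, and the effect of the scaling was not simulated. Smaller changes can be missed.

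The subunit genes, the marker lists and the lists of related genes were chosen with earlier results of these data known. All subunit genes were read in every comparison, and those too low to be tested got no value. Of each related list up to 4 called genes with the largest differences were named, and patterns were compared for subunit genes with at least 10 CPM in WT GC-like nuclei. Intervals and limits for shares of nuclei cover counting error only.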

Additional observations from a re-analysis of the deposited data

Results flagged for a closer look

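In 99 groups of 4 mice, the highest or lowest mouse stood apart from the other 3 by Dixon's criterion in 8, where chance flags about 1 in 20. Of the levels, *Gria1* in GC-like nuclei of V321L mice was lowest in F1, at 1866 CPM against a median of 2165 CPM. In MGE-type nuclei *Grin2a* was highest in WT F1, at 2746 CPM with a median of 1661 CPM, *Grin3a* was lowest in the same mouse, at 122 CPM with a median of 278 CPM, and *Grin3a* was highest in V321L M1, at 593 CPM with a median of 218 CPM. WT F1 had 17 MGE-type nuclei. In astrocyte-like nuclei *Grin2a* was highest in WT M1, at 1470.2 CPM with a median of 267 CPM.

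The other 3 were ATAC counts at gene starts in GC-like nuclei, each as CPM of all ATAC counts in peaks. *Gria4* reached 19.2 in WT F2 with a median of 13.4, *Gria2* 68.6 in V321L M2 with a median of 41.5, and *Grin3a* 20.6 in V321L M2 with a median of 9.84. V321L M2 had the fewest ATAC counts of GC-like nuclei and the fewest peaks.

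The difference between the genotypes was itself different from that in GC-like nuclei in 3 cases, by an interaction term in edgeR's quasi-likelihood test. It was -1.66 on the log2 scale for *Grin2a* in astrocyte-like nuclei (adjusted p = 0.0249), -2.48 for *Grin2a* in OPC-like nuclei (adjusted p = 0.0170) and 1.502 for *Grin3a* in OPC-like nuclei (adjusted p = 0.000171). Each of these calls was lost on leaving out at least 1 mouse, as given above.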

How the results depend on the processing

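In GC-like nuclei 8 subunit genes were called between the genotypes, and 8 without any 1 mouse, with sex as a covariate and with DESeq2. With library sizes 4 were called, *Grin1*, *Grin2d*, *Gria4* and *Grin2a*. The count of all genes called was 8141 to 9059 without 1 mouse. *Gria1* missed the threshold without a filter on low counts (-0.34). In astrocyte-like nuclei, the 1 other class with 20 nuclei in every mouse, 1 subunit gene was called, with 1 to 3 without 1 mouse, 6 with mixed nuclei kept and 0 with nuclei thinned to 500 UMIs, at which fewer genes had the counts to be tested. With a minimum of 10 nuclei, 8 were called. Of the classes against GC-like nuclei, the 12 calls became 41 with that minimum, over more classes. *Penk*+ against *Penk*- nuclei gave 6 calls, 3 to 6 without 1 mouse (3 without V321L F1), 3 within WT mice and 2 within WT mice against matched nuclei.

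The replicate numbers F1 to M2 were not used to pair the mice in the main fits, and the labels do not say whether they do. The deviations of same-numbered mice from their group means in GC-like nuclei correlated by 0.065 (F1), 0.273 (F2), -0.119 (M1) and 0.017 (M2). With the number as a block, 8901 genes were called in GC-like nuclei, of which 8 were subunit genes, and 2 subunit genes in astrocyte-like nuclei. Under that block, *Gria3* and *Grin2b* in MGE-type nuclei stood at -0.18 and -0.10.

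Several differences that did not pass or passed narrowly changed sign, and the cause was not tested. Between the genotypes in CA3-like nuclei, *Gria2* and *Gria3* stood at 0.013 and 0.16 with library sizes, and *Gria1*, *Gria2*, *Gria3* and *Grin2b* at 0.24, 0.18, 0.49 and 0.12 with nuclei thinned to 500 UMIs. In MGE-type nuclei *Grin2a* was at 0.12 with thinned nuclei, *Gria3* and *Grin2b* were at -0.027 and -0.077 with the stricter gate and at -0.094 and -0.012 with mixed nuclei kept, and without 1 mouse *Gria3* ranged from -0.25 to 0.18, *Grin2b* from -0.22 to 0.12 and *Grin3a* from -0.12 to 0.62. In OPC-like nuclei *Gria2* was at -0.0027 with mixed nuclei kept. In astrocyte-like nuclei *Gria3* ranged from -0.73 to 0.040 and *Grin3a* from -0.50 to 0.022 without 1 mouse. Against GC-like nuclei of the V321L mice, *Gria2* in CA3-like nuclei was at -0.064 and *Gria1* in MGE-type nuclei at -0.011. For *Penk*+ nuclei, *Gria3* was at 0.070 against matched nuclei, at 0.16 within V321L mice, at 0.072 within WT and 0.18 within V321L mice against matched nuclei, and from -0.12 to 0.061 without 1 mouse. *Grin1* there was at 0.014 within WT mice against matched nuclei, and *Grin2d* ranged from -0.043 to 0.49 without 1 mouse. The ratio of *Gria2* to the other *Gria* genes ranged from -0.020 to 0.078 and that of all *Grin* to all *Gria* genes from -0.085 to 0.011.

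The depth of a class limits what can be seen. WT classes other than GC-like and CA3-like nuclei rest on few nuclei, *Grin2c* on a few UMIs outside astrocyte-like nuclei and *Grin2d* on at most 22 in a genotype in any class but GC-like nuclei, and with 4 mice a group the smallest exact p is 0.0286.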

Other observations

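In classes too small to be tested, V321L mice alone had at least 10 nuclei each. Neuroblast or immature GC-like nuclei, led by *Igfbpl1* and *Sox11*, numbered 24, 35, 25 and 11 in the V321L mice and 2 to 11 in the WT mice. *Gria2* made up 81.4% ± 3.66 of their AMPA receptor level per length, *Gria1* 15.0% ± 5.47 and *Gria3* 0.934% ± 0.942 (SD, n = 4). *Gria3* had 5, 1, 5 and 0 UMIs in all. *Grin2b* was at 1444, 1256, 1298 and 843 CPM, and *Grin2a* at 825, 64.8, 114 and 496 CPM, from 40, 5, 5 and 10 UMIs. *Grin2b* made up 18.7% ± 5.10 and *Grin2a* 6.77% ± 6.88 of the NMDA receptor level per length. These values have no test.

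Cajal-Retzius cell-like nuclei, early-born neurons of the marginal zone that secrete reelin, numbered 17, 16, 11 and 10 in the V321L mice. They held *Gria4* at 1017, 1213, 1205 and 1915 CPM, and *Gria2*, *Gria4* and *Gria1* made up 50.5% ± 4.70, 24.2% ± 3.44 and 23.7% ± 5.11 of the AMPA receptor level per length. *Grin1* made up 94.97% ± 2.70 of the NMDA receptor level per length, from 5, 3, 5 and 5 UMIs. *Grin2b* had 0, 0, 1 and 1 and *Grin2a* 1, 0, 0 and 5 UMIs there.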
